A study of Mus musculus with 3 samples.

Results

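The 8 genes described here, Chil3, Saa3, F13a1, Hp, Ly6c2, Lyz2, Ccr2 and Lrg1, are transcripts of inflammatory monocytes and were followed through the leukocytes of KP1 tumors, a Rb/p53 mutant mouse model of small-cell lung cancer. They are 8 of the 33696 gene features counted, were taken by symbol, and all 8 had at least 1 UMI (unique molecular identifier, 1 counted transcript molecule) in the retained cells of each library. They were put together with their levels in these same libraries already known, so their levels by cell class are a description and carry no test. Wild-type F1 mice (B6129SF1/J) carried subcutaneous tumors grown from 500000 KP1 cells and were injected intraperitoneally with 3 µg of cytokine every other day, from day 7 through day 19. One group received mono-IL-10, a monomeric form of human IL-10 that signals through the IL-10 receptor, and is labelled Supermono-10. Another received the IL-10/2-Trikine, which adds engagement of IL2Rβ, and with it STAT5 signaling, to mono-IL-10. The last received the IL-10/2-Trikine and 200 µg of anti-PD-1 antibody on days 7, 11, 15 and 19, and is called the combination below. The protocol text can also be read as giving the antibody to each group; the groups follow the treatment labels, which name it for the last library alone. On day 19 live CD45+ leukocytes were sorted and sequenced by 10x 3′ gene expression, with 1 library per group, an unstated number of mice per library, and no untreated library among the data analysed here.

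Each comparison therefore set 1 library against 1 library. There was no replicate error and no test, and the 95% intervals given below (exact Poisson for CPM, exact binomial for shares, exact conditional binomial for ratios) cover counting error only. CPM (counts per 1e+06) is the UMIs of a gene divided by all UMIs of the cells of a class, and a gene was said to rise or fall between libraries only where its CPM differed by at least 1.5-fold with 20 or more UMIs in the pair. The combination and the mono-IL-10 library were each compared with the same IL-10/2-Trikine library, so their ratios share it. Reads were counted near the 3′ end without length scaling, so CPM levels are compared between cells and libraries and not between genes. Where genes were summed, set as a share of each other or ordered by detection, the values describe UMI counts and not amounts of RNA.

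The libraries held 158570946 to 197176873 UMIs, and 22235 cells were retained after mono-IL-10, 22707 after the IL-10/2-Trikine and 26967 after the combination, with median depths of 4774, 5562 and 4273 UMIs. Any pair of libraries shared 137 to 180 cell barcodes, at most 0.793% of a library. The labels call the cells mouse T cells, but the CD45+ sort also held monocytes, macrophages, dendritic cells, neutrophils, NK cells and B cells. Clusters were named from marker genes that excluded all 8 genes, which were also kept out of the genes used for clustering. The monocyte-like class had 1697, 1609 and 1618 cells (7.63%, 7.09% and 6.0% of each library), with its 13 markers, among them Plac8, Vcan and Fn1, summing to 9413, 10191 and 9372 CPM.

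Classical monocytes leave the bone marrow through CCR2, the receptor for CCL2, carry the surface antigen Ly6C, and enter inflamed tissue and tumors, where they can become macrophages or dendritic cell-like cells. They also secrete proteins of the acute phase kind, including serum amyloid A3, haptoglobin and leucine-rich α2-glycoprotein. In the liver the acute phase response runs through IL-6 and STAT3. IL-10 signals through STAT3 as well, and in macrophages it is best known for restraining inflammatory genes.

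The ranking covered 11 leukocyte classes. It left out group 2 innate lymphoid cell (ILC2)-like cells (34, 112 and 30 cells), mast cell or basophil-like cells (8, 11 and 12), T cell-like cells that were neither CD8 nor CD4 T cell-like (1927, 2474 and 3103), myeloid cells with T cell transcripts (1182, 864 and 1005) and unnamed cells. Across the 11 classes, 5 of the 8 genes (Chil3, Saa3, F13a1, Lyz2 and Ccr2) had their highest CPM in monocyte-like cells in all 3 libraries, and 3 did not. Ly6c2 was highest in plasmacytoid dendritic cell (pDC)-like cells in every library, Hp in neutrophil-like cells in the combination, and Lrg1 in neutrophil-like cells after the IL-10/2-Trikine. The Ly6c2 margins over CD8 T cell-like cells, the next class, were 1.04, 1.01 and 1.30 times (mono-IL-10, IL-10/2-Trikine, combination). In the first 2 libraries the CD8 T cell-like levels (424 and 511 CPM) lay inside the pDC-like counting intervals given below. Monocyte-like cells ranked behind both classes, and behind NK cell-like or B cell-like cells, in each library. The margins over monocyte-like cells were 1.54 times for Hp and 1.06 times for Lrg1. Saa3 was the most skewed toward monocyte-like cells in the combination, where its CPM was 13.3 times that of the next class. Of these 5 genes F13a1 had the smallest margin, 1.22 times the next class after the IL-10/2-Trikine.

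Monocyte-like cells held most UMIs of the secreted and lysosomal genes. They carried 83.9%, 69.7% and 82.2% of all Chil3 UMIs after mono-IL-10, the IL-10/2-Trikine and the combination. For Saa3 the shares were 80.0%, 67.4% and 79.6%. For Ccr2, which NK cells, T cells and ILC2-like cells also express, the shares were 45.7%, 28.7% and 43.2%. Ly6c2 behaved differently from the other 7 genes, since CD8 T cell-like cells held 43.7%, 36.6% and 33.2% of its UMIs and monocyte-like cells 16.3%, 7.83% and 14.0%.

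**Figure D1:**
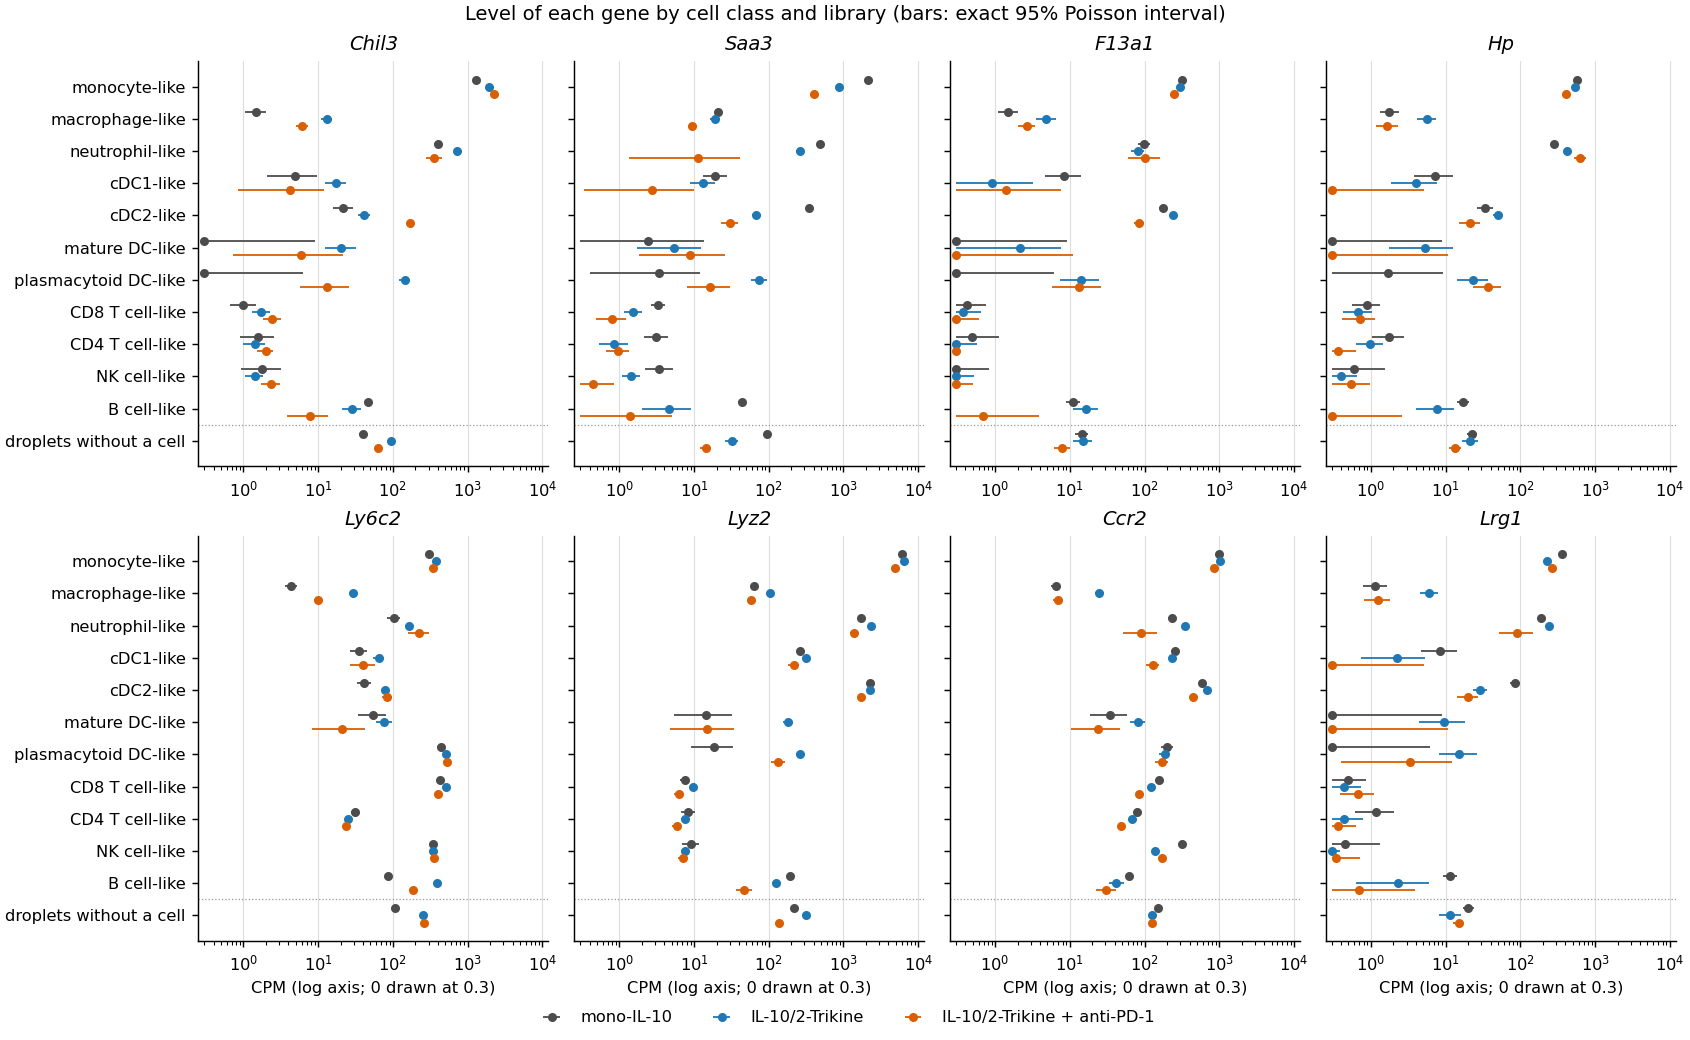
CPM of each of the 8 genes (horizontal axis, log scale, with 0 drawn at the left edge) in 11 cell classes and in droplets without a cell (vertical axis), 1 point per library with its 95% Poisson interval. Saa3 in monocyte-like cells runs from 2125 CPM after mono-IL-10 to 398 CPM in the combination, while Chil3 runs from 1311 to 2273 CPM.

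Chil3 and Saa3 moved in opposite directions in monocyte-like cells. Saa3 (ENSMUSG00000040026) encodes serum amyloid A3, the amyloid A protein made outside the liver by macrophages, monocytes and fat tissue. Its level was 2125 CPM (2101 to 2150) after mono-IL-10, 879 CPM (860 to 898) after the IL-10/2-Trikine and 398 CPM (387 to 410) in the combination. The mono-IL-10 library was the highest and the combination the lowest, with no overlap of the counting intervals. Saa3 fell to 0.414 times (0.404 to 0.424) its mono-IL-10 level after the IL-10/2-Trikine, and fell again to 0.453 times (0.437 to 0.469) when anti-PD-1 was added.

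Chil3 (ENSMUSG00000040809) encodes Ym1, a secreted chitinase-like protein without chitinase activity that is widely used as a mouse marker of monocytes and alternatively activated macrophages. Its level was 1311 CPM (1292 to 1330) after mono-IL-10, 1907 CPM (1879 to 1935) after the IL-10/2-Trikine and 2273 CPM (2246 to 2301) in the combination. The order of the libraries was thus the reverse of that for Saa3. Neither step reached 1.5-fold, with ratios of 1.45 (1.42 to 1.48) and 1.19 (1.17 to 1.22), while the combination stood at 1.73 times (1.70 to 1.77) the mono-IL-10 library.

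The balance of the 2 transcripts does not depend on the library total. Of the Saa3 and Chil3 UMIs counted together in monocyte-like cells, Saa3 made up 61.9% (61.4% to 62.3%) after mono-IL-10, 31.6% (31.0% to 32.1%) after the IL-10/2-Trikine and 14.9% (14.5% to 15.3%) in the combination. The neutrophil-like class gave 55.4%, 26.5% and 3.08%, the last from 2 Saa3 and 63 Chil3 UMIs. In type 2 conventional dendritic cell (cDC2)-like cells the same order was seen, at 94.1%, 62.2% and 14.9%. In macrophage-like cells the share was 93.4%, 59.8% and 61.0%, so the last step was not seen there. Droplets without a cell, which carry RNA released by all cells, showed the order too, with Saa3 at 96.0, 32.2 and 14.3 CPM and Chil3 at 39.7, 95.02 and 63.9 CPM. The part of released RNA in the values of the smaller classes was not tested.

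Fewer monocyte-like cells carried Saa3, and those that did carried less of it. With every cell thinned to 1000 UMIs, which left 1689, 1597 and 1598 cells, a Saa3 UMI was found in 49.4% of cells after mono-IL-10, 25.3% after the IL-10/2-Trikine and 15.3% in the combination (68.4%, 39.5% and 31.0% before thinning). Positive cells held a mean of 4.21, 3.00 and 2.60 Saa3 UMIs. Chil3 was found in 42.0%, 42.1% and 51.9% of thinned cells, and positive cells held a mean of 3.12, 4.08 and 4.29 UMIs. The share of cells with Chil3 was thus nearly the same in the first 2 libraries, and the amount per positive cell was not.

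As a background for these shares, CD8 T cell-like cells, which do not make Saa3, had a Saa3 UMI in 1.88%, 0.924% and 0.416% of cells before thinning. Their median depths were 4283.5, 4697 and 3541 UMIs, against 8002, 6022 and 7422.5 in monocyte-like cells.

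Saa3 and Chil3 were nevertheless found in the same cells. After thinning, 64.3% of monocyte-like cells with a Chil3 UMI also had a Saa3 UMI after mono-IL-10, against 38.7% of those without. The shares were 42.8% against 12.6% after the IL-10/2-Trikine, and 21.2% against 8.98% in the combination. In each library Saa3 was therefore more often detected beside Chil3 than apart from it, although the library with the most Chil3 had the least Saa3. All cells in this count had the same number of UMIs. The count pooled the monocyte-like sub-clusters described below, and the same sub-cluster held more of both genes in every library. Whether the genes went together within a sub-cluster was not tested.

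**Figure D2:**
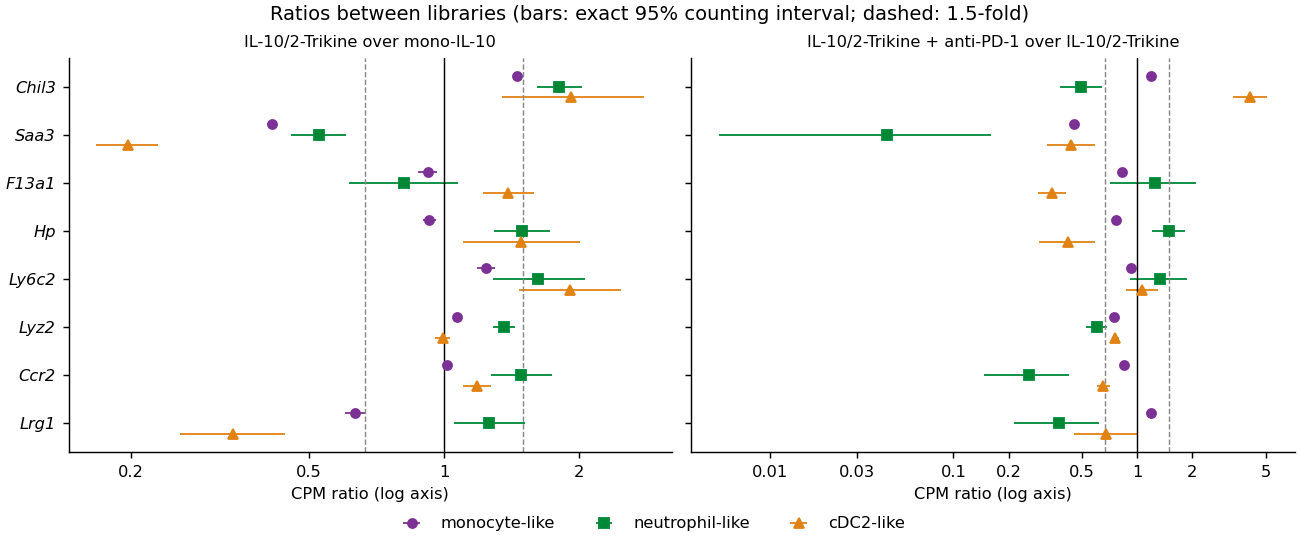
CPM ratios of the 8 genes (horizontal axis, log scale) in monocyte-like, neutrophil-like and cDC2-like cells, for the IL-10/2-Trikine divided by mono-IL-10 (left) and the combination divided by the IL-10/2-Trikine (right), with 95% counting intervals as bars and 1.5-fold as dashed lines. In monocyte-like cells Saa3 lies left of the dashed lines in both panels, at 0.414 and 0.453, and Chil3 lies right of 1, at 1.45 and 1.19.

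The upstream sequences of Saa3 and Chil3 are shown because these genes moved apart in the same cells, with that of Chil4, the closest relative of Chil3, for comparison. Each is the 250 bases before the RefSeq start site (GRCm38.p6, minus strand, 5′ to 3′). They lie at chr7:46715677-46715926 for Saa3, chr3:106167565-106167814 for Chil3 and chr3:106219480-106219729 for Chil4. Capitals mark the C/EBP letters TTGCNNAA read on the opposite strand in Saa3, and the PU.1 letters AGGAAGT read on the opposite strand in Chil3. In Chil4 they mark both motifs.
Saa3: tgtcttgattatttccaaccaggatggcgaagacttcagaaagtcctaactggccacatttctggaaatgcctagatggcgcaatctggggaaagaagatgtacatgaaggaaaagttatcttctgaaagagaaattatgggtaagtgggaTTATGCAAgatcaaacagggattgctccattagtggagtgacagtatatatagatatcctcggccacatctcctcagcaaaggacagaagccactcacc
Chil3: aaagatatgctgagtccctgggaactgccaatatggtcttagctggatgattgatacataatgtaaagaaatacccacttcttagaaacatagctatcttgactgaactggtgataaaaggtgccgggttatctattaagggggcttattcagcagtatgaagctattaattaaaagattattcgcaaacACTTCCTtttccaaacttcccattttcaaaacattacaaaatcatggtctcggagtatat
Chil4: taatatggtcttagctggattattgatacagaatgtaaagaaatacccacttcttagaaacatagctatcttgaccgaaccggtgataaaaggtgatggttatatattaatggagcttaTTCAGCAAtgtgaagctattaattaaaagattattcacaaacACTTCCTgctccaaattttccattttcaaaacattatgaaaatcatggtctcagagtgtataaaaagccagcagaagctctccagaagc
The Chil3 and Chil4 sequences were identical at 201 of 221 aligned bases (91.0%), yet monocyte-like cells held 17954, 18103 and 26688 Chil3 UMIs and no Chil4 UMI in any library. A count of 0 allows up to 0.219, 0.316 and 0.256 CPM at 3 UMIs. Reads that matched both genes equally would have been discarded in counting, so only the part of Chil3 that differs from Chil4 was measured. Of the other amyloid A genes, Saa1 had 2, 1 and 4 UMIs in monocyte-like cells and Saa2 none, so the Saa3 counts came without those of its liver-expressed relatives.

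Promoter sequence was found for 7 of the 8 genes. The PU.1 letters AGGAAGT, searched on both strands, occurred in 5 of these 7 (Chil3, F13a1, Ly6c2, Lyz2 and Lrg1). F13a1 and Ly6c2 have 2 start sites each, those of Ly6c2 with overlapping windows, so that 6 of 9 promoters held the letters, against 7.69% of all 32851 promoters. PU.1 is the ETS factor that specifies the myeloid lineage. The 41 bases around the match are shown for the other 4 genes, with the match in capitals, on the minus strand at chr13:37049226-37049266, chr15:75112055-75112095, chr10:117282349-117282389 and chr17:56122048-56122088 in that order (for F13a1, RefSeq start site 2).
F13a1: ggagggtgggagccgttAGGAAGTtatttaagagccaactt
Ly6c2: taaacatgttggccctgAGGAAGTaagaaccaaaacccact
Lyz2: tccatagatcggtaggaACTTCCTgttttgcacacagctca
Lrg1: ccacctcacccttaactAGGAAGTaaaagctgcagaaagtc
The C/EBP letters TTGCNNAA, named for a factor of the acute phase response, were found in Saa3 alone of the 7 and in 9.56% of all promoters. The STAT letters TTCNNNGAA were found in Chil3 alone and in 7.02%. The NF-kB motif (1.41% of promoters) and the TATA box letters TATAAA (12.4%) were found in none of the 7. A match says only that the letters stand in this window.

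The other acute phase genes among the 8 followed Saa3 in part. Lrg1 (ENSMUSG00000037095), which encodes leucine-rich α2-glycoprotein 1, a secreted modifier of TGF-β signaling, was at 357 CPM after mono-IL-10, 226 CPM after the IL-10/2-Trikine and 268 CPM in the combination. It fell to 0.634 times (0.602 to 0.667) after the IL-10/2-Trikine, and the combination stood at 1.19 times (1.12 to 1.25) that level. Lrg1 was lowest in the IL-10/2-Trikine library, not in the combination as Saa3 was. Hp (ENSMUSG00000031722), which encodes the hemoglobin scavenger haptoglobin, was at 578, 536 and 413 CPM. Its ratios of 0.928 (0.896 to 0.961) and 0.770 (0.740 to 0.801) stayed short of 1.5-fold.

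The genes of monocyte identity and entry differed less between libraries. Ccr2 (ENSMUSG00000049103), the chemokine receptor that draws monocytes into tissue, was at 996, 1010 and 861 CPM, a ratio of 1.01 (0.988 to 1.04) and then 0.852 (0.829 to 0.877). Ly6c2 (ENSMUSG00000022584), which encodes the Ly6C surface antigen, was at 300 CPM after mono-IL-10, 372 CPM after the IL-10/2-Trikine and 345 CPM in the combination. Its ratios were 1.24 (1.19 to 1.30) and 0.927 (0.886 to 0.970). Neither gene passed 1.5-fold, and thinned cells showed Ccr2 in 58.6%, 56.4% and 51.6% and Ly6c2 in 20.8%, 21.9% and 21.0%.

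Lyz2 (ENSMUSG00000069516) encodes lysozyme, the bacterial wall enzyme of myeloid cells, and was detected in the most monocyte-like cells of the 8 genes, 83.0%, 77.5% and 76.2% after thinning. It was at 5993, 6410 and 4826 CPM, ratios of 1.07 (1.06 to 1.08) and 0.753 (0.744 to 0.762). F13a1 (ENSMUSG00000039109), the A subunit of the clotting transglutaminase factor XIII, was at 321, 295 and 244 CPM, ratios of 0.919 (0.876 to 0.964) and 0.827 (0.784 to 0.871). Both genes were lowest in the combination. The paralogs that could share their reads were scarce, with Lyz1 at 5.91, 2.42 and 1.87 CPM and Ly6c1 at 7, 4 and 13 UMIs.

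Counted over the 8 genes in monocyte-like cells, none rose after the IL-10/2-Trikine, where 5.16% of all 11635 genes did, and 2 fell (Saa3 and Lrg1), where 7% did. When anti-PD-1 was added, none of the 8 rose, where 5.28% of 11474 genes did, and 1 fell (Saa3), where 4.58% did. The median log2 ratio of the 8 was -0.04 and then -0.25, beside -0.02 and -0.01 over all genes. The summed level of the 8 was 11980 CPM after mono-IL-10, 11635 CPM after the IL-10/2-Trikine and 9628 CPM in the combination.

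The monocyte-like class held 2 sub-clusters that carried the 8 genes to different degrees. Sub-cluster 14 (609, 618 and 795 cells, 35.9%, 38.4% and 49.1% of the class) was led by Chil3, Lyz2, Cxcl10, Hp and Saa3. It also had more of the classical monocyte gene Vcan (412 against 71.5 CPM) than sub-cluster 0, over the 3 libraries pooled. Sub-cluster 0 (1088, 991 and 823 cells) was led by Saa3, Pla2g7 and Ly6i. It had more C1qa (795 against 168 CPM), a complement gene of macrophages, and more Treml4 (175 against 75.5 CPM) and Adgre4 (109 against 38.6 CPM). The depths were close, with medians of 7532.5 and 6760.5 UMIs.

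Within sub-cluster 14 Chil3 was at 2544 CPM after mono-IL-10, 3280 CPM after the IL-10/2-Trikine and 3285 CPM in the combination. In sub-cluster 0 it was at 597, 800 and 1189 CPM. The second step, from the IL-10/2-Trikine to the combination, was therefore seen in sub-cluster 0 (ratio 1.49) and not in sub-cluster 14 (ratio 1.001). Saa3 fell at both steps in both sub-clusters, from 2870 to 1259 to 460 CPM in sub-cluster 14 and from 1694 to 573 to 332 CPM in sub-cluster 0.

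Ly6c2 and F13a1 separated the sub-clusters as well. After the IL-10/2-Trikine, Ly6c2 was at 1.26 times its mono-IL-10 level in sub-cluster 14 and 0.757 times in sub-cluster 0. With anti-PD-1 the order was turned, at 0.746 times in sub-cluster 14 and 1.39 times in sub-cluster 0. F13a1 fell after the IL-10/2-Trikine in sub-cluster 0, from 154 to 73.2 CPM, which is 0.477 times (0.425 to 0.535), while sub-cluster 14 gave 611 and 571 CPM. In the whole class these ratios also depend on the share of cells in each sub-cluster, and the differences between the sub-clusters were not tested.

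**Figure D3:**
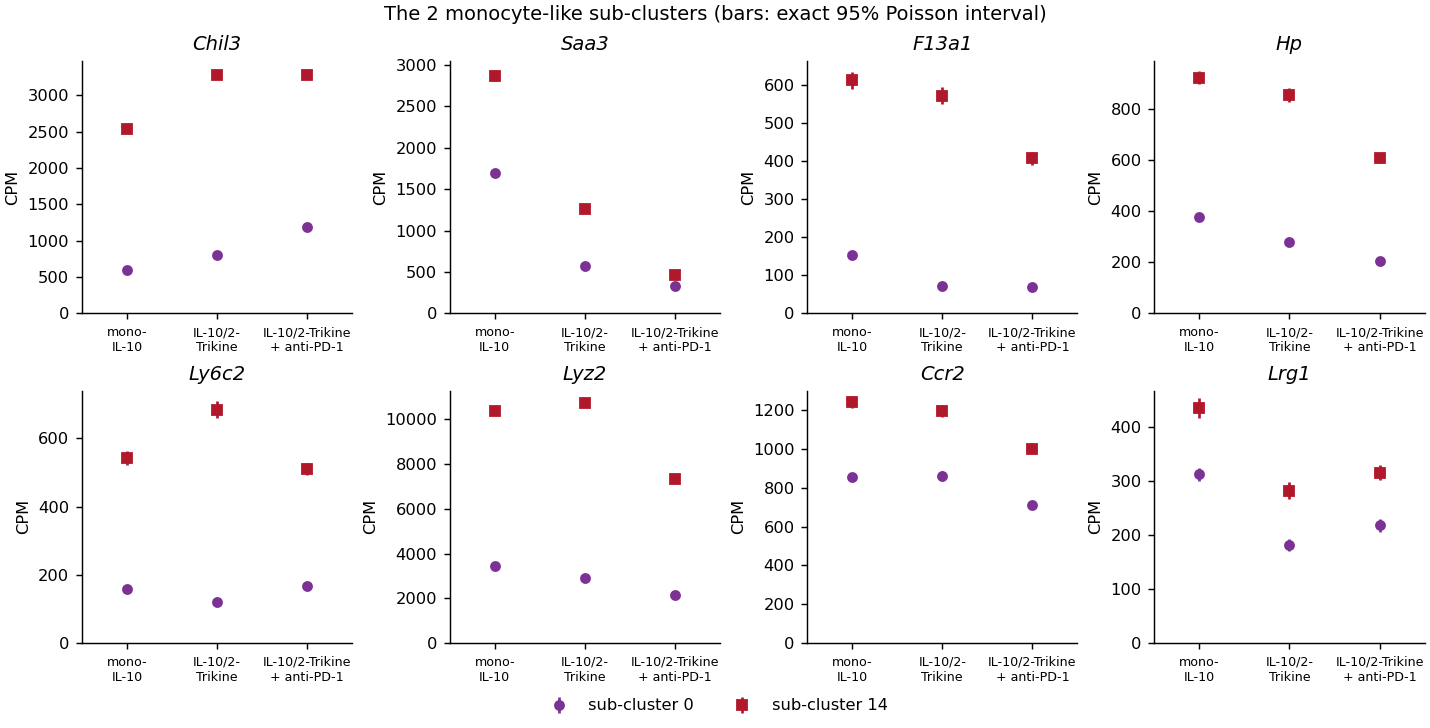
CPM of the 8 genes (vertical axis from 0) in monocyte-like sub-clusters 0 and 14 of the 3 libraries (horizontal axis), 1 point per library with its 95% Poisson interval. Sub-cluster 14 lies above sub-cluster 0 for each gene in each library, and Saa3 declines from left to right in both, from 2870 to 460 CPM and from 1694 to 332 CPM.

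Companion gene lists place the 8 genes among their neighbors in monocyte-like cells. All 9 genes of a monocyte identity list stayed within 1.5-fold in both comparisons, for example Plac8 at 5867, 6623 and 6077 CPM and Vcan at 218, 230 and 216 CPM. The median log2 ratios of this list were 0.01 and -0.09. Its 9 genes are among the 13 markers that were used to name the class. Of all 13, 1 rose and none fell in the first comparison, where 5.16% and 7% of all genes did. In the second none rose and 2 fell, where 5.28% and 4.58% did. Among 13 further acute phase and secreted defense genes, 6 had enough UMIs, of which 2 rose and 1 fell after the IL-10/2-Trikine and 2 rose and 2 fell when anti-PD-1 was added. Of all genes 5.16% and 7% did so in the first comparison and 5.28% and 4.58% in the second. Lcn2, the iron-binding lipocalin, was at 37.1, 57.8 and 23.7 CPM and complement factor Cfb at 229, 121 and 219 CPM. Saa3 was thus not followed by the acute phase genes as a group.

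Of 11 CCR2 ligands and other monocyte chemokine and receptor genes, 6 fell, 5 stayed within 1.5-fold and none rose in each of the comparisons. The median log2 ratios of the list were -0.59 and -0.60. Of all genes 7% and 4.58% fell. Ccl2, the main ligand of CCR2, was at 430, 251 and 200 CPM, a fall in the first comparison only. Ccl8, another ligand, was at 48.8, 26.8 and 6.98 CPM and fell in both. The neutrophil attractant Cxcl2 was at 899, 597 and 293 CPM and fell in both, while the receptor Ccr1 (341, 354 and 404 CPM) did not pass 1.5-fold.

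Of 11 genes of IL-6 and IL-10 reception and the STAT3 response 10 had enough UMIs, and the myeloid factor Cebpa alone fell after the IL-10/2-Trikine (37.7, 23.2 and 27.3 CPM), where 7% of all genes did. The IL-10 receptor gene Il10ra was at 172, 207 and 192 CPM, Socs3, a feedback inhibitor that STAT3 induces, at 787, 707 and 682 CPM, and Stat3 at 363, 358 and 341 CPM. None of the 10 passed 1.5-fold when anti-PD-1 was added. The median log2 ratios of the list were 0.04 and -0.01.

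Of 6 S100 alarmin genes, 2 rose after the IL-10/2-Trikine and the same 2 fell when anti-PD-1 was added, while 4 stayed within 1.5-fold in both comparisons. Of all genes 5.16% rose in the first comparison and 4.58% fell in the second. The genes that moved were S100a8 at 121, 249 and 108 CPM and S100a9 at 9.93, 41.4 and 14.7 CPM, both most abundant in neutrophils. Of 10 macrophage differentiation genes, 4 fell and none rose in the first comparison and 5 rose and none fell in the second, where 7% of all genes fell and 5.28% rose, with C1qa at 542, 347 and 636 CPM. The summed macrophage markers in this class were 4065, 3173 and 4536 CPM, the neutrophil markers 1624, 1431 and 884 CPM, and the T cell markers 56.6, 68.8 and 85.2 CPM. The NK cell markers were at 28.0, 97.2 and 117 CPM, with 4 of 6 genes higher in the first comparison, and the ILC2 markers at 94.99, 148 and 176 CPM. Macrophage markers were thus lowest in the IL-10/2-Trikine library, where Saa3 was intermediate, and the part of these markers in the values of the 8 genes was not tested.

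Macrophage-like cells (4148, 1943 and 4736 cells), defined by C1qa, Apoe and related genes, held little of the 8 transcripts, together 100, 208 and 96.1 CPM. After thinning, 93.5%, 92.3% and 93.0% of them had no UMI of any of the 8, against 3.97%, 9.46% and 8.01% of monocyte-like cells. Lyz2 was the gene most often found, in 19.1%, 15.4% and 13.9% of macrophage-like cells before thinning, against 4.29%, 4.93% and 3.11% of CD8 T cell-like cells. For Chil3 the shares were 0.868%, 1.70% and 1.86% against 0.590%, 0.748% and 1.23%. The median depths were 6289, 4575 and 4676.5 UMIs in macrophage-like cells. In every library all 8 genes were below their level in droplets without a cell, where Lyz2 was at 218, 316 and 138 CPM.

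In these cells 7 of the 8 genes rose after the IL-10/2-Trikine, where 9.08% of all 13100 genes did, and none fell, where 4.92% did. When anti-PD-1 was added, none of the 8 rose, where 4.44% of 12998 genes did, and all 8 fell, where 6.62% did. Ly6c2 was at 4.35, 29.5 and 9.95 CPM, ratios of 6.79 and 0.337, and Ccr2 was at 6.45, 24.9 and 6.93 CPM, ratios of 3.86 and 0.278. Saa3, at 20.8, 19.3 and 9.54 CPM, was the gene that did not rise in the first comparison. The median log2 ratio over all genes was 0.05 and then -0.02.

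These counts changed when the small sub-clusters 9 and 13 were left out. Both were chosen because the 8 genes were high in them, so the change is not an independent check. Sub-cluster 9, with 392, 295 and 907 cells and a median of 391 UMIs, held Ly6c2 at 106, 280 and 115 CPM. Sub-cluster 13, with 72, 106 and 126 cells, was led by Ccl8, Mmp12 and Vcam1 and held Ly6c2 at 1.62, 137 and 21.3 CPM. With only sub-cluster 9 left out, 6 of the 8 genes rose and none fell after the IL-10/2-Trikine, where 8.82% and 4.77% of all genes did. When anti-PD-1 was added, none rose and all 8 fell, where 4.45% and 6.73% did. Without both sub-clusters, 3 of the 8 genes rose and 3 fell after the IL-10/2-Trikine, where 5.29% and 5.84% of all genes did. When anti-PD-1 was added, 3 rose and 2 fell, where 5.94% and 2.83% did. Saa3 was then at 19.2, 2.65 and 7.97 CPM, higher in the combination than after the IL-10/2-Trikine. Ly6c2 was at 3.46, 5.43 and 6.49 CPM, and its last 2 intervals overlapped (3.93 to 7.32 and 5.43 to 7.70). T cell markers moved with the 8 genes in the whole class, 13 of 13 higher and then 12 lower (73.7, 387 and 205 CPM in sum), as did NK cell markers (53.9, 661 and 256 CPM). Monocyte markers, a list without the 8 genes, summed to 533, 699 and 657 CPM, with 7 of 12 higher and then 5 of 12 lower. The part of these markers in the result was not tested.

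**Figure D4:**
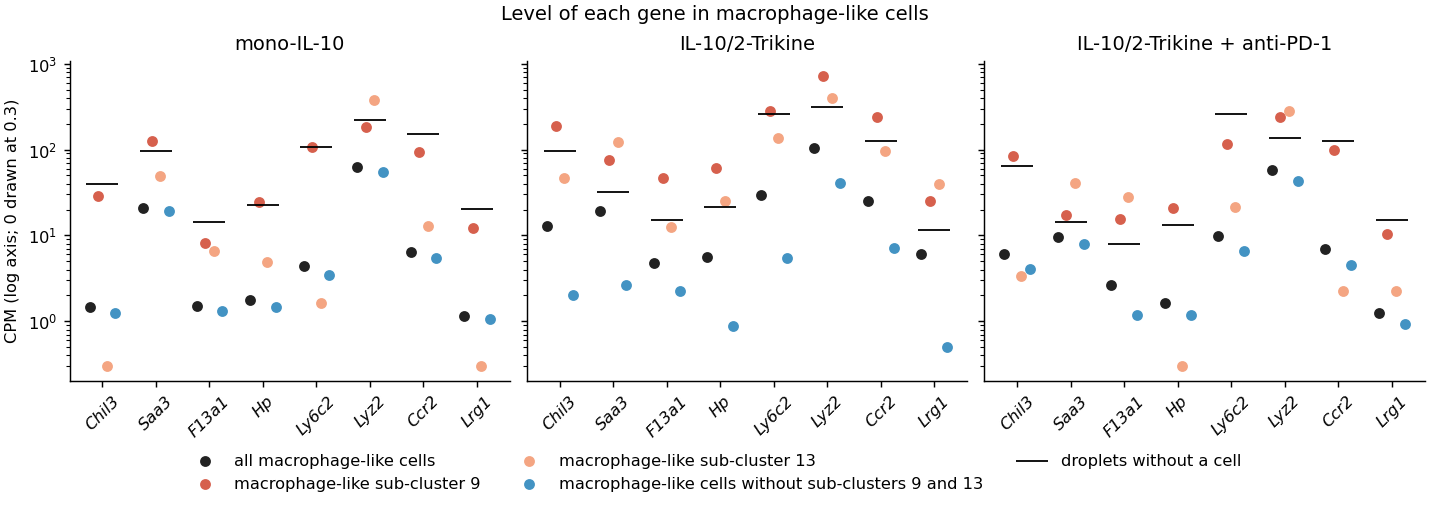
CPM of the 8 genes (vertical axis, log scale, with 0 drawn at the bottom) in macrophage-like cells of the 3 libraries (panels), for all cells, sub-clusters 9 and 13, and the class without them, with droplets without a cell as black lines. All cells lie under the black line for every gene, and without the 2 sub-clusters Ly6c2 after the IL-10/2-Trikine goes from 29.5 to 5.43 CPM.

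Neutrophil-like cells (371, 598 and 105 cells) had lower CPM of the same genes as a class, except Hp in the combination and Lrg1 after the IL-10/2-Trikine. Hp, a granule protein of neutrophils, was at 285 CPM after mono-IL-10, 425 CPM after the IL-10/2-Trikine and 634 CPM in the combination. This order was opposite to that in monocyte-like cells, though no step of Hp reached 1.5-fold in either class. Lrg1, also stored in neutrophil granules, was at 190, 240 and 90.5 CPM, the last from 16 UMIs.

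In neutrophil-like cells Saa3 was at 491 CPM after mono-IL-10, 258 CPM after the IL-10/2-Trikine, 0.526 times (0.457 to 0.605), and 11.3 CPM in the combination. That last value rests on 2 UMIs, and its ratio to the IL-10/2-Trikine library was 0.0438 (0.00528 to 0.16). Chil3 was at 396, 717 and 356 CPM, a rise of 1.81-fold (1.61 to 2.03) followed by a fall. The monocyte markers, a list without the 8 genes, summed to 3807, 6597 and 4323 CPM in this class, with 7 of 13 higher and then 6 of 13 lower, and their part was not tested. Few neutrophil-like cells held Saa3 or Chil3. After thinning, Chil3 was found in 33 of 323, 35 of 405 and 3 of 63 cells, and Saa3 in 39, 28 and 1. Cells with Chil3 held a mean of 2.97, 3.80 and 1.67 UMIs, against 3.12, 4.08 and 4.29 in monocyte-like cells. The 63 Chil3 UMIs of the combination came from 5 of 105 cells. The median log2 ratio over all genes was -0.25 in the first comparison. In this class the B cell markers summed to 1347, 162 and 84.9 CPM and the T cell markers to 642, 349 and 187 CPM. Macrophage markers summed to 3902, 2341 and 2308 CPM and NK cell markers to 184, 555 and 317 CPM. The class's own neutrophil markers summed to 30147, 43987 and 38525 CPM. The part of these markers was not tested.

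In cDC2-like cells (211, 325 and 250 cells), dendritic cells that present antigen to CD4 T cells, Saa3 was at 347, 68.3 and 29.9 CPM. It fell to 0.197 times (0.167 to 0.231) and then to 0.438 times. After thinning, a Saa3 UMI was found in 11 of 188, 10 of 320 and 2 of 236 cells, with means of 7.0, 2.1 and 1.0 UMIs. Lrg1 was at 85.9, 29.1 and 19.6 CPM and fell to 0.339 times (0.258 to 0.442) in the first comparison. Both genes were highest after mono-IL-10, as in monocyte-like cells, but rest on few cells here, with Lrg1 in 11, 4 and 0 thinned cells. Chil3 was at 21.6, 41.6 and 171 CPM and rose 1.93-fold and then 4.12-fold (3.34 to 5.10), from UMIs in 6, 16 and 20 cells. Lyz2 (2267, 2253 and 1713 CPM) stayed within 1.5-fold in both comparisons, while Ccr2 (579, 685 and 448 CPM) did so in the first and fell to 0.654 times in the second. In all, 2 of the 8 genes rose and 2 fell in the first comparison, where 6.53% and 11.5% of genes did, and 1 rose and 4 fell in the second, where 7.43% and 7.53% did. The mature DC markers summed to 202, 90.9 and 231 CPM in this class (4 of 5 lower, then 5 of 5 higher), the macrophage markers to 2761, 2171 and 2561 CPM (5 of 14 lower, then 3 higher) and the neutrophil markers to 1963, 1451 and 1132 CPM. Their part in these values was not tested.

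The remaining dendritic cells held less of the 8 transcripts together than cDC2-like cells did. The sums were 661, 1238 and 915 CPM in pDC-like cells, against 3549, 3447 and 2570 CPM in cDC2-like cells. After the IL-10/2-Trikine, pDC-like cells had more Chil3 (143 against 41.6 CPM) and Saa3 (75.2 against 68.3 CPM) than cDC2-like cells. Chil3 was then found in 1 of 94 thinned pDC-like cells. Type 1 conventional dendritic cell-like cells had Ccr2 at 252, 230 and 129 CPM and Lyz2 at 260, 313 and 215 CPM. In mature dendritic cell-like cells Ccr2 was at 34.3, 82.0 and 23.7 CPM. The pDC-like cells were high in Ly6c2, a known surface antigen of mouse pDCs, at 440 CPM (388 to 496), 517 CPM (470 to 568) and 528 CPM (472 to 589). These intervals overlap between neighboring libraries.

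Outside the myeloid cells, Ccr2 was high in ILC2-like cells at 871, 531 and 488 CPM, and it was at 319, 137 and 174 CPM in NK cell-like cells. In CD8 T cell-like cells Ccr2 was at 157, 123 and 83.1 CPM. Each of these was highest after mono-IL-10. A small unnamed myeloid sub-cluster of 512 cells, led by Nrg1, Gab1 and Htr7 and with a median of 1199.5 UMIs, held Saa3 at 327, 50.9 and 43.7 CPM.

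Ly6c2 in CD8 T cells marks antigen-experienced cells with memory or effector features. CD8 T cell-like cells (4404, 4543 and 4565 cells, with a Cd8a or Cd8b1 UMI and no Cd4 UMI) held Ly6c2 at 424 CPM (416 to 432) after mono-IL-10, 511 CPM (503 to 519) after the IL-10/2-Trikine and 405 CPM (397 to 414) in the combination. By CPM the IL-10/2-Trikine library was the highest and the combination the lowest. By the share of thinned cells given below, mono-IL-10 was the lowest instead. The ratios were 1.20 (1.18 to 1.23) and 0.794 (0.774 to 0.814), short of 1.5-fold. Thinned cells had a Ly6c2 UMI in 29.9%, 41.9% and 31.8%, and CD4 T cell-like cells held 31.0, 25.4 and 24.0 CPM. The other genes except Ccr2 and Lyz2 were at or below 3.31 CPM in CD8 T cell-like cells.

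Ly6c2 was unevenly spread over the T cell clusters. Cluster 2, led by Ccl5, Cd8b1, Ly6c2 and Gzmk, had the most, at 803, 1005 and 781 CPM, and held 31.5%, 41.3% and 41.6% of the CD8 T cell-like cells. Cluster 11, led by the cycling genes Rrm2 and Top2a, had 201, 335 and 199 CPM and held 13.6%, 33.9% and 16.6%. Cluster 10, led by Cd8a, Lag3 and Cxcr6, had 227, 563 and 131 CPM. The IL-10/2-Trikine library was the highest of the 3 in each of these clusters, by the widest margin in cluster 10.

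**Figure D5:**
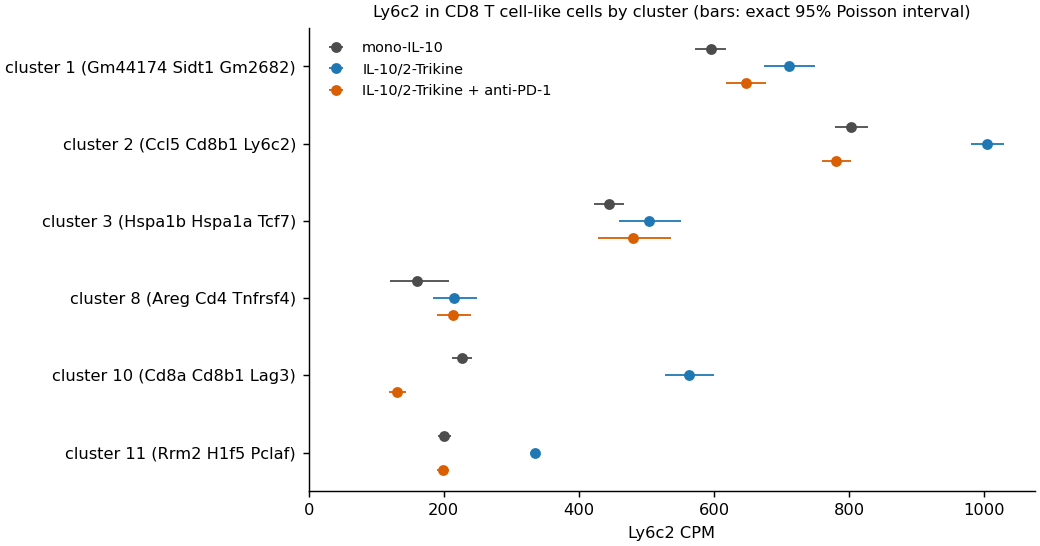
Ly6c2 CPM (horizontal axis from 0) in CD8 T cell-like cells of 6 clusters, named by leading genes (vertical axis), 1 point per library with its 95% Poisson interval. Cluster 2 reaches 1005 CPM after the IL-10/2-Trikine, and cluster 10 reaches 563 CPM there against 227 and 131 CPM in the other libraries.

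The CD8 T cell-like cells with a Ly6c2 UMI after thinning (1292, 1878 and 1389 cells) differed from those without (3033, 2605 and 2983 cells) in other genes. Ccr2, the only other of the 8 genes with a sizeable level in these cells, was 1.67, 1.85 and 1.98 times as high in the Ly6c2-positive cells. The chemokine gene Ccl5 was 1.33, 1.70 and 1.27 times as high, while the granzyme genes Gzma, at 0.778, 0.744 and 0.884 times, and Gzmb, at 0.923, 0.843 and 0.764 times, were lower in each library. The inhibitory receptor genes Lag3, at 0.640, 0.720 and 0.395 times, and Havcr2, at 0.717, 0.460 and 0.449 times, were lower in each library. Pdcd1 was at 0.667 and 0.702 times after mono-IL-10 and in the combination and at 1.001 times (0.870 to 1.15) after the IL-10/2-Trikine. Lower in each library were also the exhaustion factor Tox, at 0.646, 0.777 and 0.493 times, and the cycling gene Mki67, at 0.541, 0.696 and 0.606 times.

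Of 17 genes on a list of CD8 T cell states, 2 rose and 7 fell after the IL-10/2-Trikine in CD8 T cell-like cells, where 8.21% and 17.3% of all genes did, with a median log2 ratio of -0.42 beside -0.14 over all genes. When anti-PD-1 was added, 3 rose and none fell, where 9.92% and 6.07% of all genes did, with a median of 0.26 beside 0.04. The NK cell markers, which share Gzma and Eomes with this list, summed to 5413, 12287 and 10453 CPM in these cells. Of 10 such markers, 4 were higher and 2 lower in the first comparison, and 3 were higher and none lower in the second. Their part was not tested. Pdcd1, the gene of the targeted receptor PD-1, was at 118, 181 and 254 CPM. Lag3 was at 177, 109 and 195 CPM, lowest in the library where Ly6c2 was highest.

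Over 21 combinations of class and library with at least 200 cells, the genes outside the 8 that were most like each of them were found by Pearson correlation of log2(CPM + 10) among 5713 genes. The points share libraries and depth, so these values are a description. Chil3 was most like Ms4a4a (0.976), Saa3 most like Ncf4 (0.958) and Ly6i (0.955), although Lrg1 among the 8 was closer (0.971), and F13a1 most like Plcb1 (0.990) and Vcan (0.988). Outside the 8 genes, Hp and Lrg1 both had Mcemp1 as the nearest gene (0.982 and 0.977), and they were closer still to each other (0.985). Lyz2 was most like Gda (0.994) and Ccr2 most like Prkx (0.978). Ly6c2 stood apart, with Ppp2r5a (0.836) its nearest gene and 0.0749 its correlation with Lyz2.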

How the data were processed

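Live CD45+ cells were sequenced with 10x 3′ v3.1 chemistry. The deposited files are raw matrices of UMI counts per gene and barcode, made by the authors with Cell Ranger (8.0.0 in the file headers); the submitters' notes name mm10. The study's methods name another Cell Ranger version and build.

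A barcode was retained if it had 200 or more genes and no more than 20% of its UMIs from mitochondrial genes. Cells were clustered with scanpy 1.11.5 in Python 3.11.15 (2000 variable genes without the 8 genes and their paralogs, 30 principal components, 20 neighbors, Leiden resolution 1). Myeloid cells were clustered again on 1500 variable genes. A cluster was named, as X-like, from at least 3 markers of a list. A cluster led by another class, or a shallow one with no own marker among its 10 leading genes, stayed unnamed, as did sub-clusters under 50 cells. Shallow sub-clusters led by own markers kept their class (macrophage-like 9 and 18 and neutrophil-like 20, with medians of 391, 971.5 and 328.5 UMIs). Sub-clusters in which at least 50% of cells had a Cd3e UMI were kept apart as myeloid cells with T cell transcripts (1182, 864 and 1005 cells), and no other cells were removed as doublets. Droplets of 10 to 100 UMIs stood for released RNA.

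UMI counts were summed over the cells of each class and library, and CPM was computed from the sums with exact Poisson intervals. Each group was 1 library, so no test was run. The named genes were the 8 genes, their paralogs, the companion lists and the 3 most similar genes for each. The members and lists were chosen with earlier results of these data known. Alternatives included TMM factors (edgeR 4.0.16, R 4.3.3), a marker gate per cell, Leiden resolution 2 and thinning to 1000 UMIs. The interval and ratio functions were tested on simulated data.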

Additional observations from a re-analysis of the deposited data

Results flagged for a closer look

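Chil3 and Lrg1 changed in opposite directions in different myeloid classes of the same libraries. When anti-PD-1 was added, Chil3 rose 4.12-fold (3.34 to 5.10) in cDC2-like cells and fell to 0.470 times in macrophage-like cells, 3.13 apart on the log2 scale, and to 0.497 times in neutrophil-like cells, 3.05 apart. After the IL-10/2-Trikine, Lrg1 rose 5.26-fold (3.34 to 8.44) in macrophage-like cells and fell to 0.634 times in monocyte-like cells, 3.05 apart, and to 0.339 times in cDC2-like cells, 3.96 apart. With 1 library per group the differences between classes were not tested. The cDC2-like Chil3 UMIs came from 16 and 20 cells. Neither macrophage-like direction held without sub-clusters 9 and 13, which were chosen for their high levels of the 8 genes. Without them Lrg1 was at 1.07 CPM after mono-IL-10 and 0.505 CPM after the IL-10/2-Trikine. Chil3 was then at 2.02 CPM after the IL-10/2-Trikine and 4.03 CPM in the combination.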

How the results depend on the processing

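No paired analysis was possible because each group was 1 library. In monocyte-like cells no difference of at least 1.5-fold changed its direction. In monocyte-like cells Saa3 stayed lower by at least 1.5-fold under all 12 alternatives, with log2 ratios of -1.56 to -1.19 after the IL-10/2-Trikine and -1.45 to -0.79 when anti-PD-1 was added, and Lrg1 did so in the first comparison (-0.99 to -0.62). The Chil3 log2 ratio was above 0 under all 12 in both (0.37 to 0.56 and 0.00 to 0.57). Its lowest second value, with sub-cluster 14 alone, was a ratio of 1.001 (0.980 to 1.02), an interval that held 1. Among smaller differences, the direction held in 11 and 10 of 12 alternatives for Ly6c2, and in 8 for Ccr2 and 10 for Lyz2 in the first comparison, and F13a1 passed 1.5-fold in 1 (-1.07). In macrophage-like cells the counts and directions changed. Subtracting the lowest level among the T, NK and B cell-like classes as released RNA left no ratio for Ly6c2 and Ccr2 there. These 2 genes therefore had 11 alternatives in that class. Without sub-clusters 9 and 13 the first log2 ratio turned negative for Hp (-0.75), Lyz2 (-0.40) and Lrg1 (-1.08), and the second turned positive for Chil3 (0.996), Saa3 (1.59), Hp (0.42), Ly6c2 (0.26), Lyz2 (0.067) and Lrg1 (0.89). The second ratio of Chil3 was also positive with the marker gate (0.59) and Leiden resolution 2 (0.82). The number that rose after the IL-10/2-Trikine (7) was 4 with thinned cells and 3 without sub-clusters 9 and 13. The number that fell (0) was 1 with the marker gate, Leiden resolution 2 or thinning, and 3 without both sub-clusters. When anti-PD-1 was added, the number that rose (0) was 1 with the gate or resolution 2 and 3 without both sub-clusters, and the number that fell (8) was 4 with the gate, resolution 2 or thinning and 2 without both sub-clusters. With sub-cluster 0 alone, 3 genes fell in monocyte-like cells in the first comparison, where 7.47% of all genes did. The log2 ratio of Ly6c2 in CD8 T cell-like cells (0.27) was 0.40 with TMM or median-of-ratios factors, 0.36 with the gate, 0.31 at resolution 2 and 0.53 thinned. The second ratio (-0.33) was -0.38 with either set of factors, -0.23 with the gate and -0.40 thinned. The causes were not tested. Leaving out cells called by Scrublet was not run, since its threshold marked 0 cells in 2 libraries; leaving out the 10% of cells with the highest scores, chosen after seeing the data together with the sub-cluster alternatives, stood in for it. Depth limits the classes with few cells most, and with 1 library per group no value carries an error between mice.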
